A study of Mus musculus with 2 samples.

Results

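Oxidative phosphorylation was followed through 109 genes of the 27998 counted: all genes whose symbol starts with mt-, Nduf, Uqcr, Sdh or Atp5, or with Cox and a digit from 4 to 8. They comprised 13 genes encoded by mitochondrial DNA and 96 nuclear genes. By their known place in the respiratory chain, the nuclear genes were 36 subunits of complex I, 4 of complex II, 8 of complex III, 19 of complex IV and 15 of complex V, together with 7 assembly factors of complex I, 4 of complex II, the supercomplex factor *Cox7a2l*, and 2 genes named after ATP synthase that are not subunits of it (*Atp5s* and *Atp5sl*). Single cells came from the ocular area of C57BL/6J mouse embryos at the 26 somite stage (E9.25), with 1 library from the optic areas of 1 wild-type embryo (WT) and 1 library from those of 1 *Mab21l1*-null embryo (KO), made with the 10x Chromium 3′ system. No other allele or treatment was stated for either embryo, and the null allele is present in every cell of its embryo. The comparisons ask how the mitochondrially encoded and the nuclear genes differ between the cell types of the early eye region, and between the libraries within each cell type.

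The respiratory chain is built from proteins of 2 genomes. Mitochondrial DNA encodes a few hydrophobic core subunits, transcribed as long precursors from both strands and cut into single messengers, whereas all other subunits are encoded in the nucleus, translated in the cytosol and imported. Complexes I, III and IV pump protons across the inner membrane as electrons pass from NADH to oxygen, complex II feeds electrons from succinate without pumping, and complex V, ATP synthase, uses the proton gradient. Several nuclear subunits of complex IV have isoforms known from particular tissues, such as heart, skeletal muscle, lung or testis.

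The WT-labelled library held 43636657 UMIs (unique molecular identifiers, 1 per captured transcript) over 1745 barcodes, a median of 20806 per barcode, and the KO-labelled library held 53148253 over 2458, a median of 18008.5. *Mab21l1* RNA was counted in both, with 886 UMIs (20.3 counts per 1000000 UMIs, CPM) in the WT-labelled library and 1718 (32.3 CPM) in the KO-labelled library, and the libraries differed in opposite directions by class. In surface ectoderm-like cells it had 86.9 CPM [70.4, 106] (96 UMIs) in the WT-labelled library and 37.6 CPM [25.2, 54.0] (29 UMIs) in the KO-labelled library, and in optic vesicle-like cells 30.3 CPM [28.1, 32.6] (704 UMIs) and 54.0 CPM [51.3, 56.7] (1573 UMIs). The targeted gene thus went with the labels in the ectoderm and against them in the optic vesicle. Where along *Mab21l1* these molecules lie relative to the null allele cannot be read from counts per gene. Both libraries shared 15 barcodes. Cells were kept with 1500 to 8000 genes and at most 5% mitochondrial UMIs, which left 1680 and 2404, and were assigned by a gate on marker genes. Optic vesicle-like cells numbered 790 in the WT-labelled library and 1115 in the KO-labelled library, forebrain neural ectoderm-like 32 and 58, mesenchyme-like 498 and 775, surface ectoderm-like 57 and 43, endothelium-like 67 and 104, primitive erythroid-like 38 and 52, and neural crest-like 33 and 32. The markers below are those of the gate itself, so their higher levels follow in part from the assignment and are no separate evidence of identity. All markers of each class were at least 2-fold above the other cells in both libraries, except in the forebrain class, where 4 of 6 were. There *Emx2* was lower than in other cells, with 1.61 against 8.87 CPM in the WT-labelled library and 1.88 against 11.2 in the KO-labelled library. *Barhl2* had no UMI in this class. With 1 embryo per genotype, cells of 1 library are not replicates: no test was made, and brackets give exact 95% intervals (binomial for shares, Poisson for levels, conditional binomial for ratios) that cover counting error only. Levels count 1 UMI per molecule at its 3′ end and are not divided by transcript length.

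Promoters are shown for *Ndufa8* and *Cox6b2*, the members farthest above the other classes in endothelium-like and in primitive erythroid-like cells, and for *Cox6b1*, the paralogue of the latter. Each is the 250 bases before the RefSeq start of the gene (GRCm38.p6), 5′ to 3′ on the gene's own strand. *Cox6b1* (chr7:30626115-30626364, minus strand) encodes the widely expressed form of a complex IV subunit, and *Cox6b2* (chr7:4753095-4753344, minus strand) the form known from testis. *Ndufa8* (chr2:36049339-36049588, minus strand) encodes an accessory subunit of complex I. Capitals mark matches to the short motifs searched for, on either strand: CCGGAAG of the ETS family in *Cox6b1*, GGGCGG of the SP family in *Cox6b2*, and in *Ndufa8* GGGCGG on both strands followed by GCGCATGC, the core bound by NRF1, a regulator of respiratory chain genes. The GENCODE annotation starts *Cox6b1* and *Ndufa8* farther upstream, within these windows. By that annotation the CCGGAAG match of *Cox6b1* and the GCGCATGC match of *Ndufa8* lie inside the gene.
Cox6b1: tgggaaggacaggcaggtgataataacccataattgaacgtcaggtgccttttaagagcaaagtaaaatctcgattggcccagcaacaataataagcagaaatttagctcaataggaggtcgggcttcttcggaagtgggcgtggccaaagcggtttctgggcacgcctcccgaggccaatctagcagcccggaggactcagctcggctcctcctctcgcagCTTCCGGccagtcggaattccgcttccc
Cox6b2: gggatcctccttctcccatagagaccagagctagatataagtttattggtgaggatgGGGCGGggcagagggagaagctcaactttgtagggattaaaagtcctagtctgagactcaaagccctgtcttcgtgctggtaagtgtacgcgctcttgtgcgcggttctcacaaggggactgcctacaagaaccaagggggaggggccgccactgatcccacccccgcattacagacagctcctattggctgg
Ndufa8: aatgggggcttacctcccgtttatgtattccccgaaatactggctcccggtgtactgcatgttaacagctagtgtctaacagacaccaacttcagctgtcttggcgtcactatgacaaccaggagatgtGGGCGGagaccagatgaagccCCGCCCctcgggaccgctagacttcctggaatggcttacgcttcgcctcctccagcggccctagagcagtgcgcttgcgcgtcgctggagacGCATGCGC

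RefSeq promoters were found for 77 of the 96 nuclear members, and each motif was searched on both strands from 250 bases before to 50 bases after the first listed start, with motifs counted separately where they overlap. GCGCATGC stood in 15.6% of the members' windows and in 2.80% of all 27025 windows of this length. CCGGAAG stood in 24.7% against 9.12%, AAGATGG of YY1 in 11.7% against 6.48%, and GGGCGG in 46.8% against 35.9%. AGATAA of the GATA family (7.79% against 11.4%) and TATAAA (10.4% against 14.2%) were less frequent. The median GC content was 58.3% in the members' windows and 52.7% in all, and its part in these shares was not tested. A match describes letters in a window, not a bound site.

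The mitochondrially encoded and the nuclear genes did not order the cell classes alike. Among the classes large enough to compare, neural crest-like and endothelium-like cells had the highest mitochondrially encoded share of UMIs. Optic vesicle-like cells, second lowest of these classes in that share, had their highest nuclear share per all UMIs. Per UMIs without globins, primitive erythroid-like cells had the highest nuclear share of the classes compared, at 3.43% and 3.40%, and optic vesicle-like cells the lowest mitochondrially encoded share. In the WT-labelled library the mitochondrially encoded share was 3.58% [3.54, 3.63] in neural crest-like, 3.57% [3.55, 3.60] in endothelium-like and 3.22% [3.21, 3.23] in mesenchyme-like cells. It was 2.65% [2.62, 2.68] in surface ectoderm-like, 2.51% [2.47, 2.55] in forebrain neural ectoderm-like, 2.15% [2.15, 2.16] in optic vesicle-like and 2.08% [2.05, 2.10] in primitive erythroid-like cells. The first 2 of this order did not differ beyond counting error, whereas each later neighbour did.

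The KO-labelled library gave 3.58% [3.56, 3.60] for endothelium-like, 3.43% [3.38, 3.48] for neural crest-like, 3.15% [3.14, 3.16] for mesenchyme-like and 2.69% [2.66, 2.72] for forebrain neural ectoderm-like cells. Surface ectoderm-like cells followed with 2.61% [2.57, 2.64], optic vesicle-like cells with 2.29% [2.28, 2.29] and primitive erythroid-like cells with 2.02% [1.999, 2.04]. Forebrain and surface ectoderm thus stood in opposite order in the 2 libraries.

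Nuclear members made up 3.39% [3.38, 3.40] of the UMIs of optic vesicle-like cells in the WT-labelled library and 3.36% [3.35, 3.37] in the KO-labelled library. The next classes were forebrain neural ectoderm-like cells, with 2.93% [2.89, 2.97] and 3.00% [2.96, 3.03], and endothelium-like cells, with 2.92% [2.89, 2.94] and 2.93% [2.91, 2.95]. Mesenchyme-like cells had 2.81% and 2.88%, neural crest-like cells 2.80% and 2.86%, and surface ectoderm-like cells 2.76% and 2.78%; intervals of these last classes overlapped in the WT-labelled library for mesenchyme with neural crest and for neural crest with surface ectoderm. The nuclear share therefore spanned a narrower range than the mitochondrial share once primitive erythroid-like cells, at 2.30% and 2.24%, are set aside. Macrophage-like cells, too few to be compared (17 and 8), had nuclear shares of 3.51% [3.46, 3.55] and 3.40% [3.33, 3.48]. These lay above optic vesicle-like cells, beyond counting error in the WT-labelled library only. Their mitochondrially encoded shares were 2.44% and 2.15%, so a high nuclear with a low mitochondrially encoded share was not particular to the optic vesicle.

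**Figure D1:**
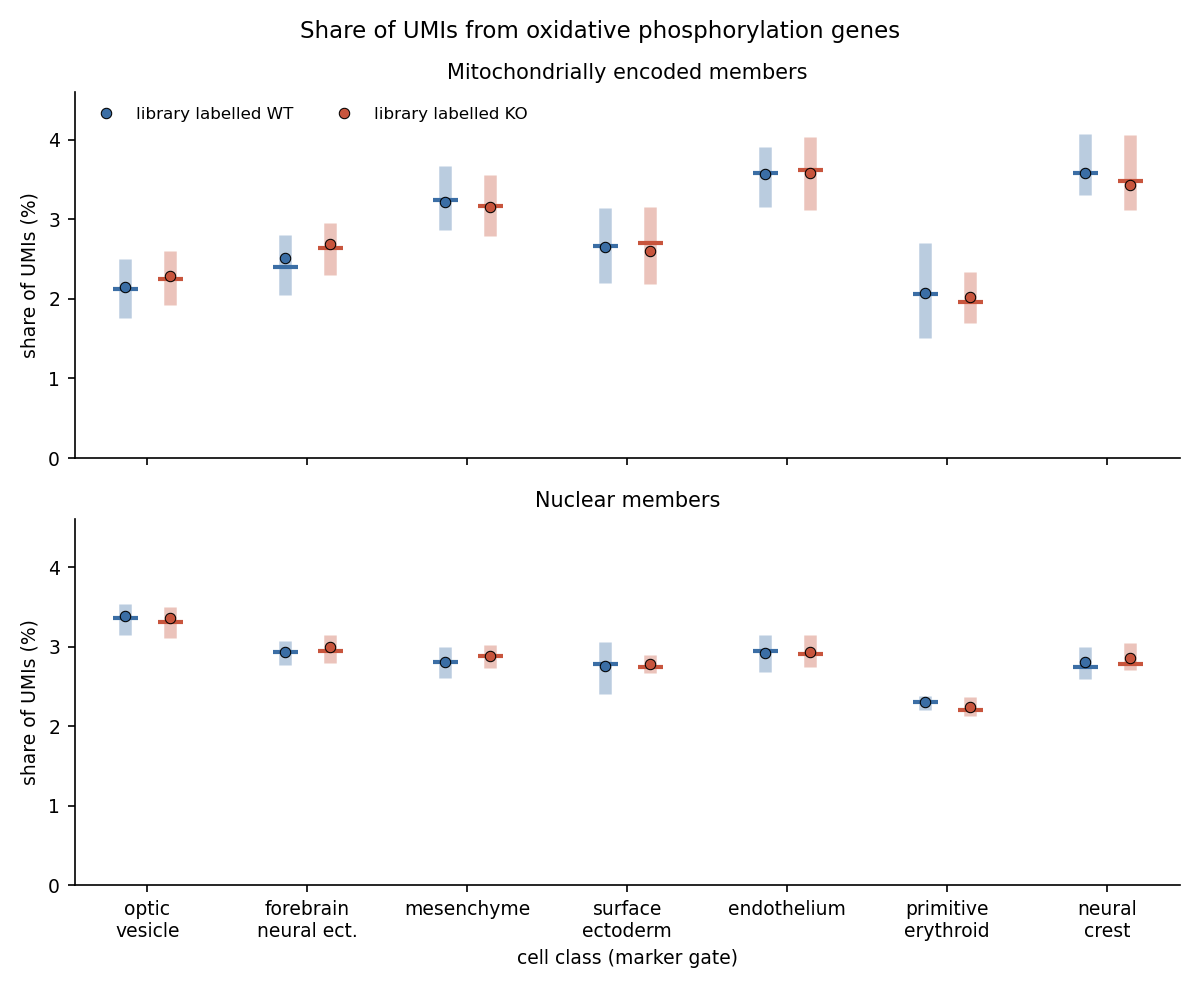
Share of UMIs (%) from the 13 mitochondrially encoded members (top) and the 96 nuclear members (bottom) in the 7 cell classes. Points give the share of the summed UMIs of a class, horizontal ticks the median over cells and pale bars the quartiles over cells, blue for the WT-labelled library and red for the KO-labelled library. Optic vesicle-like cells sit at 2.15% and 2.29% in the top panel and at 3.39% and 3.36% in the bottom one, whereas mesenchyme-like cells sit at 3.22% and 3.15% and at 2.81% and 2.88%.

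Set against each other, nuclear UMIs outnumbered mitochondrially encoded ones 1.58 to 1 in optic vesicle-like cells of the WT-labelled library and 1.47 to 1 in those of the KO-labelled library. In neural crest-like cells the ratio was 0.782 and 0.834, in endothelium-like cells 0.816 and 0.818, and in mesenchyme-like cells 0.871 and 0.913. The remaining classes compared lay between 1.04 and 1.17. In the few macrophage-like cells the ratio was 1.44 in the WT-labelled library and 1.58 in the KO-labelled library. Mesenchyme-like over optic vesicle-like cells, the mitochondrially encoded level was 1.498-fold in the WT-labelled library and 1.38-fold in the KO-labelled library, and the nuclear level was 0.828-fold and 0.857-fold.

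Within classes, cells varied more in the mitochondrially encoded share. The quartiles over optic vesicle-like cells were 1.76% and 2.50% for the mitochondrially encoded share in the WT-labelled library, and 3.14% and 3.53% for the nuclear share. Across these 790 cells the Spearman correlation of the shares was -0.087, and it was -0.054 across the 1115 cells of the KO-labelled library. It was lower in surface ectoderm-like cells, at -0.462 (57 cells) and -0.270 (43 cells), and in neural crest-like cells, at -0.346 (33 cells) and -0.367 (32 cells). In primitive erythroid-like cells it was positive, at 0.295 (38 cells) and 0.256 (52 cells). Cells of a library share its preparation, and the 2 shares have a common denominator. Depth also differed between the classes: median UMIs per cell ran from 16214 in neural crest-like to 34642.5 in primitive erythroid-like cells of the WT-labelled library. Optic vesicle-like and endothelium-like cells, far apart in the mitochondrially encoded share, had like medians there, 25429 and 25402. Inside mesenchyme-like cells the Spearman correlation of the mitochondrially encoded share with the UMIs of a cell was -0.262 and -0.283, and inside optic vesicle-like cells 0.116 and 0.134. The part of depth in the class differences was not tested.

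Of the mitochondrially encoded UMIs, most came from a few genes. *mt-Atp6* (complex V proton channel subunit), *mt-Co3*, *mt-Co1* and *mt-Co2* (complex IV core subunits), *mt-Nd1* (complex I) and *mt-Cytb* (cytochrome b of complex III) each took at least 7.94% in all classes and libraries. *mt-Atp6* led with 22.6% in optic vesicle-like cells of both libraries. *mt-Nd4* held between 6.08% and 6.91%, and *mt-Nd2* between 4.08% and 4.96%.

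The 5 other genes stayed below 2%. *mt-Nd3* ranged from 1.16% to 1.87%, *mt-Nd5* from 0.53% to 1.14%, *mt-Nd4l* from 0.26% to 0.46%, *mt-Atp8* from 0.14% to 0.29% and *mt-Nd6* from 0.02% to 0.14%. *mt-Nd6* is the only one of the 13 on the minus strand, at 13552 to 14070 of chromosome M (GRCm38). *mt-Atp8* (7766 to 7969) and *mt-Atp6* (7927 to 8607) share the 43 bases below, printed to show where their reads cannot be told apart, and are known to be carried on 1 messenger. *mt-Nd4l* and *mt-Nd4* overlap by 7 bases. Counts made at the 3′ end need not give the amount of a messenger for each gene it carries, so the low shares of *mt-Atp8* and *mt-Nd4l* are shares of reads. *mt-Nd6* lies opposite *mt-Nd5*, and 7 of the 13 genes have near-identical copies in other genes.
mt-Atp8 and mt-Atp6, chrM:7927-7969, plus strand: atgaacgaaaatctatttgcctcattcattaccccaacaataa

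Primitive erythroid-like cells stood apart in this composition. In them *mt-Co3* took 19.5% in the WT-labelled library and 20.4% in the KO-labelled library, against 16.0% to 17.8% elsewhere. *mt-Atp6* took 18.8% and 19.2% there, against 21.7% to 23.6% elsewhere, and *mt-Cytb* 8.02% and 7.94%, against 9.87% to 11.2%.

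**Figure D2:**
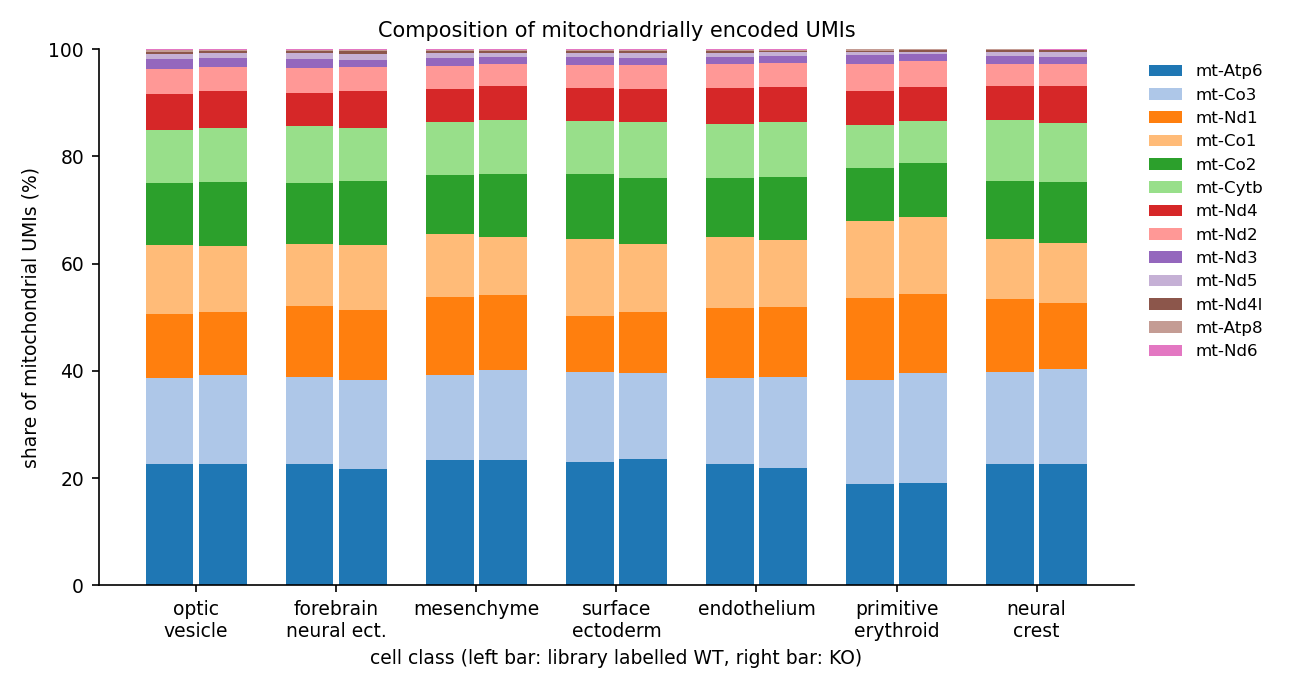
Share (%) of each of the 13 mitochondrially encoded genes in the mitochondrially encoded UMIs of each cell class, with the WT-labelled library on the left and the KO-labelled library on the right of each pair. In primitive erythroid-like cells the *mt-Atp6* segment is smaller (18.8% and 19.2%) and the *mt-Co3* segment larger (19.5% and 20.4%) than in the other classes.

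Among nuclear members the small subunits of complexes IV and V were counted most. Over the classes and libraries, *Cox8a* and *Cox7c* led complex IV, *Atp5g2* (a proton-translocating c-ring gene) and *Atp5j* complex V, *Uqcrh* and *Uqcr10* complex III, *Ndufa2* and *Ndufa7* complex I, and *Sdhb* (the iron-sulfur subunit) and *Sdhd* (a membrane anchor) complex II. In optic vesicle-like cells *Cox8a* had 1132 CPM in the WT-labelled library and 1127 in the KO-labelled library, *Uqcrh* 782 and 818, *Ndufa2* 566 and 536, and *Sdhb* 184 and 181. *Atp5g2* had 961 and 1040 CPM there.

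Of the isoform pairs of complex IV, the widely expressed form prevailed in each case. *Cox4i1* ranged from 637 to 1197 CPM over classes and libraries, whereas *Cox4i2*, the form known from lung and from responses to low oxygen, did not exceed 12.7 CPM in these classes. The few macrophage-like cells, outside the classes compared, had 94.5 and 61.4 CPM of *Cox4i2* (58 and 14 UMIs). *Cox6a1* ranged from 352 to 478 CPM, and its muscle form *Cox6a2* had no UMI in the kept cells of either library, nor had *Cox7b2* and *Cox8b*. A count of 0 there allows up to 0.0716 CPM in the WT-labelled library and 0.0572 in the KO-labelled library, taking 3 counts as the limit. *Cox8c* had no UMI in the 7 classes.

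*Cox7a1*, the heart and muscle form, reached at most 2.95 CPM, against 482 to 833 CPM for *Cox7a2*. *Cox7b* ranged from 411 to 584 CPM. *Ndufa4*, now known as a subunit of complex IV, ranged from 490 to 1133 CPM and its paralogue *Ndufa4l2* from 0 to 3.43. The 3 c-ring genes of ATP synthase were all counted, *Atp5g1* from 436 to 906 CPM, *Atp5g2* from 398 to 1040 and *Atp5g3* from 281 to 523.

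Members were then compared between classes, each class against the mean of the other 6 within each library, and counted where they were at least 1.5-fold apart in the same direction in both libraries with at least 100 UMIs in the class. Optic vesicle-like cells had 5 of 91 nuclear members higher by this rule and none lower, where 8.47% of all genes tested were higher and 6.83% lower. None of the 13 mitochondrially encoded members passed in either direction. The median ratio was 1.246 and 1.21 for the nuclear members and 0.771 and 0.816 for the mitochondrially encoded ones. The mean of the other classes includes primitive erythroid-like cells, where globin UMIs lower the share of every other gene. Per UMIs without globins the medians were 1.156 and 1.116 for the nuclear members. They were 0.732 and 0.776 for the mitochondrially encoded ones.

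*Cox4i2* was 2.24-fold and 3.44-fold above the other classes in optic vesicle-like cells, from 183 UMIs (7.87 CPM [6.77, 9.10]) and 347 UMIs (11.9 CPM [10.7, 13.2]). Surface ectoderm-like cells, with only 14 and 7 *Cox4i2* UMIs, had 12.7 and 9.08 CPM, so that the optic vesicle was above the mean but not above every class. *Cox7a1* was 1.94-fold and 2.62-fold, from 62 and 86 UMIs. For both genes the mean of the other classes rests on few UMIs. Endothelium-like cells had 0 and 1 of *Cox4i2* and 4 and 3 of *Cox7a1*. *Ndufa1*, an X-linked accessory subunit of complex I, had 314 and 310 CPM in optic vesicle-like cells (1.70-fold and 1.84-fold), *Ndufb6* 293 and 285 (1.84-fold and 1.62-fold), and *Ndufs4*, another complex I subunit, 267 and 281 (1.75-fold and 1.76-fold). *Ndufs4* and *Ndufb6* were named here after their values were seen, to complete the 5. *Ndufb6* overlaps an exon on the other strand and has a near-identical copy elsewhere.

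Endothelium-like cells had a single member higher, *Ndufa8*, whose promoter is shown above, and a single one lower, *Ndufv1*, out of 95 tested; of all genes 21.4% were higher and 4.13% lower. *Ndufa8* (chromosome 2, 36036326 to 36049406, minus strand) had 669 UMIs, or 340 CPM [315, 367], in the WT-labelled library and 971 UMIs, or 382 CPM [358, 407], in the KO-labelled library. In the other 6 classes it lay between 102 and 183 CPM, so the endothelium stood 2.28-fold and 2.52-fold above their mean with no overlap. Macrophage-like cells, too few to be among the 7 classes (17 and 8), had 305 CPM [263, 352] and 338 CPM [267, 422], which overlapped the endothelium. *Ndufv1*, the flavoprotein that accepts electrons from NADH, had 35.6 and 36.2 CPM, 0.630-fold and 0.601-fold. The mitochondrially encoded members had a median ratio of 1.32 and 1.30 in this class (1.26 and 1.24 without globins), and none of the 13 reached 1.5-fold in both libraries. *mt-Nd6*, with 58 and 57 UMIs, was 1.65-fold in the WT-labelled library and 1.02-fold in the KO-labelled library.

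In surface ectoderm-like cells, which include the cells of the future lens, no member of 91 tested was higher. *Ndufa8* alone was lower, at 118 CPM [98.3, 140] and 113 CPM [90.4, 139] (0.632-fold and 0.575-fold). Backgrounds were 11.8% higher and 1.07% lower. Neural crest-like cells had a like *Ndufa8* level, 125 and 102 CPM (0.676-fold and 0.516-fold), and missed the fold in the WT-labelled library only. Endothelium-like cells, the highest in *Ndufa8*, were in the mean of the others in both cases. *Cox7a2l*, which takes part in the assembly of respiratory supercomplexes, had its highest levels in surface ectoderm-like (517 and 536 CPM) and neural crest-like cells (528 and 448 CPM) without reaching the fold.

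Mesenchyme-like cells had *Cox4i2* higher, at 6.03 and 6.73 CPM (1.58-fold and 1.56-fold), and *Cox6b2* lower, at 23.5 and 31.1 CPM (0.550-fold and 0.642-fold), of 103 members tested, where 9.22% of all genes were higher and 4.57% lower. Neither was an extreme of the classes. *Cox4i2* was higher in optic vesicle-like and surface ectoderm-like cells. *Cox6b2* was lower in endothelium-like (11.7 and 13.8 CPM) and neural crest-like cells (18.9 and 21.2 CPM). The mean of the other classes includes primitive erythroid-like cells, which had the most *Cox6b2*. Neither forebrain neural ectoderm-like cells (86 members, backgrounds 9.47% and 1.32%) nor neural crest-like cells (81 members, backgrounds 6.52% and 1.17%) had a member past the fold in either direction.

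Primitive erythroid-like cells, the nucleated red cells of the embryo, had the most members past the fold. Globin genes took 32.9% and 34.1% of their UMIs, which lowers the share of every other gene. Per all UMIs, 7 of 78 nuclear members were higher and 18 lower, and 6 of 12 mitochondrially encoded members were lower and none higher, with 12.9% of all genes higher and 39.1% lower. Per UMIs without globins, a denominator chosen after the data were seen, 20 nuclear members were higher and 3 lower, and of the mitochondrially encoded members *mt-Nd5* alone was lower, with backgrounds of 26.0% and 14.8%. By either denominator the nuclear members passed no more often than all genes, in either direction. The mitochondrially encoded members exceeded the share of all genes only among those lower per all UMIs.

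Over both denominators *Cox6b2* was the member farthest above the other classes. It had 159 UMIs, or 116 CPM [98.7, 136], in the WT-labelled library and 271 UMIs, or 142 CPM [126, 160], in the KO-labelled library, against 11.7 to 61.6 CPM in the other classes. That was 4.26-fold and 4.75-fold per all UMIs and 6.35-fold and 7.21-fold without globins. *Cox6b1* had 507 and 478 CPM there, against 666 to 837 elsewhere, so that the more widely expressed form still exceeded *Cox6b2*.

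Core subunits were among the higher members. *Ndufs3* of complex I, which has a near-identical copy, had 244 and 234 CPM in primitive erythroid-like cells (2.19-fold and 2.07-fold), *Uqcrc1*, a core protein of complex III, 195 and 222 CPM (1.90-fold and 1.98-fold) and *Atp5b*, the catalytic beta subunit of ATP synthase, 921 and 980 CPM (1.89-fold and 1.89-fold). Macrophage-like cells had a like level of *Atp5b*, with 992 and 952 CPM. The lowest nuclear ratios per all UMIs were those of *Cox7a2l* (153 and 153 CPM, 0.362-fold and 0.351-fold), *Sdhc*, a membrane anchor of complex II (44.5 and 48.3 CPM, 0.429-fold and 0.411-fold), and *Ndufs4* (76.6 and 84.0 CPM, 0.417-fold and 0.436-fold). These 3 were also the nuclear members lower without globins, at 0.540-fold and 0.532-fold, 0.639-fold and 0.624-fold, and 0.620-fold and 0.662-fold. Without globins the mitochondrially encoded share of the class was 3.09% and 3.07% and the nuclear share 3.43% and 3.40%.

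**Figure D3:**
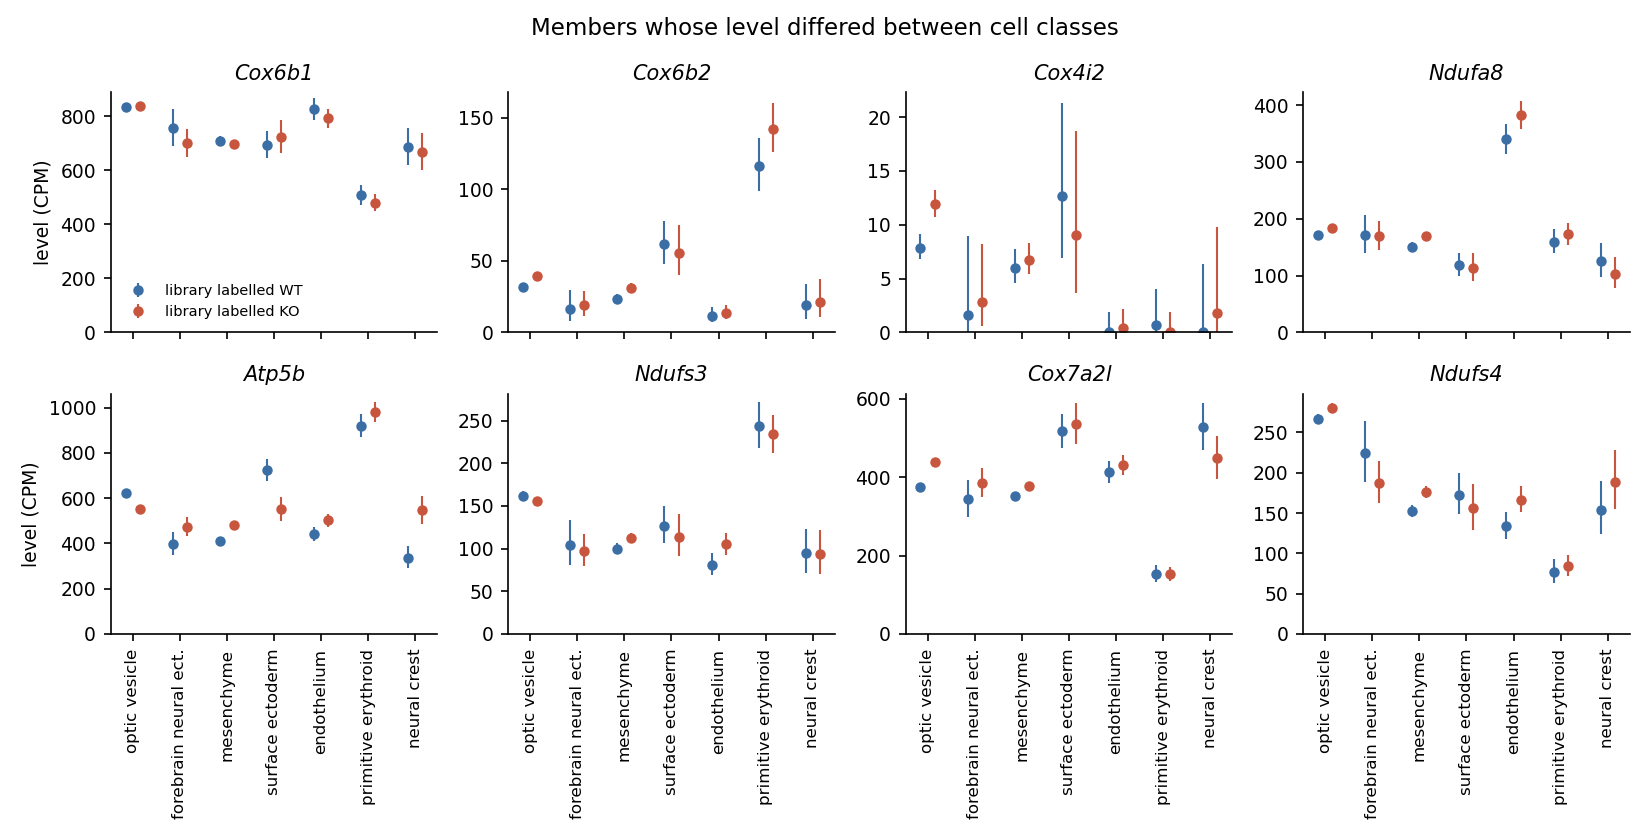
Level (CPM) of 8 members in the 7 cell classes, blue for the WT-labelled library and red for the KO-labelled library, with exact 95% Poisson intervals as bars. *Ndufa8* is highest in endothelium-like cells (340 and 382 CPM), *Cox6b2* (116 and 142) and *Atp5b* (921 and 980) in primitive erythroid-like cells, and *Cox7a2l* is lowest there (153 and 153).

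The libraries were then compared within each class. Summed over the 13 mitochondrially encoded members, the KO-labelled library was 1.064-fold [1.060, 1.068] the WT-labelled library in optic vesicle-like cells and 1.071-fold [1.050, 1.092] in forebrain neural ectoderm-like cells. It was 0.979-fold [0.974, 0.983] in mesenchyme-like, 0.973-fold [0.958, 0.988] in primitive erythroid-like and 0.958-fold [0.939, 0.977] in neural crest-like cells. Surface ectoderm-like cells (0.984 [0.966, 1.001]) and endothelium-like cells (1.002 [0.992, 1.012]) did not differ beyond counting error. These differences are a few percent, and the spread between embryos is not known.

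Summed over the 96 nuclear members, the ratio was 0.991 [0.988, 0.994] in optic vesicle-like, 1.023 [1.005, 1.042] in forebrain neural ectoderm-like, 1.026 [1.021, 1.031] in mesenchyme-like and 0.972 [0.958, 0.986] in primitive erythroid-like cells. It was 1.006 [0.989, 1.024] in surface ectoderm-like, 1.004 [0.993, 1.015] in endothelium-like and 1.021 [0.999, 1.044] in neural crest-like cells. The mitochondrially encoded and nuclear sums thus lay on opposite sides of 1, beyond counting error, in optic vesicle-like and in mesenchyme-like cells, in opposite order. Clusters, made without members, put 264 and 244 cells in the forebrain class and gave a nuclear ratio of 0.994 there. The mesenchyme-like cells of the libraries were spread unequally over these clusters, of which 1 held 82 cells of the WT-labelled library and 15 of the KO-labelled library and another 27 and 121. Unequal numbers were not particular to the mesenchyme. The cluster named optic vesicle held 185 and 365 cells, a cluster named forebrain 143 and 56, and a cluster without a name 82 and 206. The part of such differences in the ratios of any class was not tested. In primitive erythroid-like cells without globins the ratio was 0.991 [0.977, 1.006] for the nuclear and 0.992 [0.976, 1.007] for the mitochondrially encoded sum, so that neither differed beyond counting error.

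Counted member by member, 9 of 13 mitochondrially encoded members were higher in optic vesicle-like cells of the KO-labelled library, 3 of 13 in mesenchyme-like and 1 of 12 in primitive erythroid-like cells, where 52.8%, 51.5% and 45.0% of all genes tested were higher. In optic vesicle-like cells the 3 core subunits of complex IV summed to 1.079-fold [1.072, 1.085] and *mt-Cytb* was 1.090-fold [1.077, 1.103], whereas the nuclear members of complex III were 0.971-fold [0.962, 0.981] and those of complex IV 1.002-fold [0.997, 1.008]. In mesenchyme-like cells all 7 mitochondrially encoded members of complex I were lower (sum 0.947 [0.938, 0.955]), while 28 of its 36 nuclear members were higher (sum 1.053 [1.043, 1.063]). The nuclear subunits of complex II, which has no mitochondrially encoded part, were 1.141-fold [1.048, 1.243] in endothelium-like, 1.293-fold [1.091, 1.533] in neural crest-like and 1.067-fold [1.030, 1.105] in mesenchyme-like cells. In the other 4 classes their ratio ran from 0.946 in surface ectoderm-like to 1.056 in forebrain neural ectoderm-like cells, with intervals that included 1.

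No mitochondrially encoded member was 1.5-fold apart between the libraries in any class, and 6 pairs of a class and a nuclear member were. The share of all genes past this fold in either direction was 1.76% in optic vesicle-like, 4.18% in forebrain neural ectoderm-like, 2.48% in mesenchyme-like, 5.15% in surface ectoderm-like, 3.13% in endothelium-like, 2.8% in primitive erythroid-like and 5.8% in neural crest-like cells. Of the members, 1 of 104 passed in optic vesicle-like, 1 of 86 in forebrain neural ectoderm-like, 2 of 91 in surface ectoderm-like and 2 of 81 in neural crest-like cells, and none in the other 3 classes. In each class the members' share was below that of all genes, most of which have fewer UMIs.

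*Cox4i2* in optic vesicle-like cells was the only pair from the 2 largest classes, with 183 UMIs in the WT-labelled library and 347 in the KO-labelled library, a ratio of 1.51 [1.26, 1.82] at levels of 7.87 and 11.9 CPM. *Sdhaf1*, an assembly factor of complex II, had 65 and 72 UMIs in forebrain neural ectoderm-like cells (0.646 [0.456, 0.918]), and an exon on the other strand overlaps it. In surface ectoderm-like cells *Uqcrc2*, the other core protein of complex III, had 142 and 52 UMIs, or 129 and 67.5 CPM (0.525 [0.374, 0.726]), although it overlaps an exon on the other strand and has a near-identical copy. *Sdha*, the flavoprotein of complex II, had 86 and 36 UMIs, or 77.9 and 46.7 CPM (0.600 [0.395, 0.895]).

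In neural crest-like cells *Sdhc* had 52 and 80 UMIs (1.58 [1.102, 2.29]) and *Atp5b* 197 and 310, or 338 and 546 CPM (1.62 [1.35, 1.94]). *Atp5b* went the other way in surface ectoderm-like cells, from 799 UMIs (723 CPM) to 426 (553 CPM), a ratio of 0.764. Its levels in the remaining classes moved less, for example from 622 to 550 CPM in optic vesicle-like cells.

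**Figure D4:**
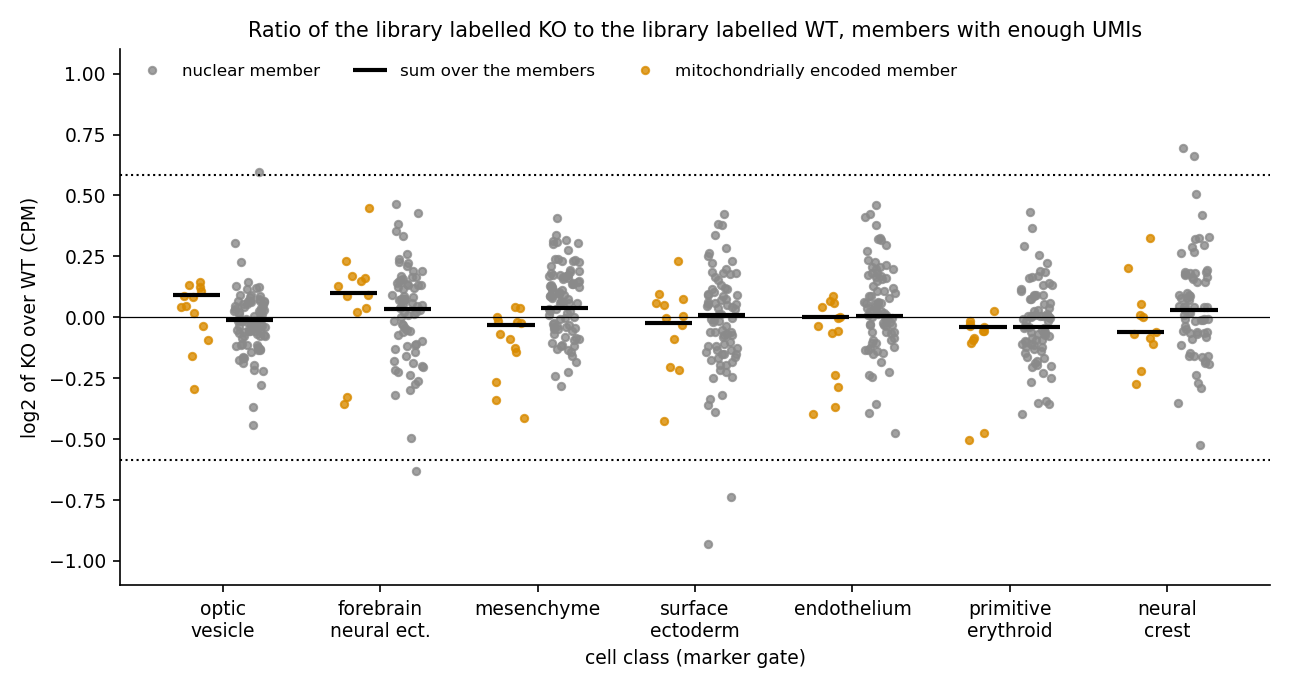
Ratio of the KO-labelled library to the WT-labelled library (log2 of the ratio of CPM) for each member with at least 100 UMIs in the class, orange for mitochondrially encoded and grey for nuclear members, with horizontal bars for the ratio of the sums and dotted lines at 1.5-fold. The 6 grey points outside the dotted lines are *Cox4i2*, *Sdhaf1*, *Uqcrc2*, *Sdha*, *Sdhc* and *Atp5b*, and no orange point lies outside them.

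Of the 79 members with at least 100 UMIs in all 7 classes, 6 were lower in the KO-labelled library in every class and 3 higher in every class, where 6.45% and 5.24% of the 1241 genes tested were. Both counts lay near these shares. The lower ones were *mt-Nd3*, the accessory subunits *Ndufa2*, *Ndufa3* and *Ndufc1* of complex I, and the subunits *Atp5e* and *Atp5k* of ATP synthase. The higher ones were *Ndufs7*, a core subunit of complex I, and *Atp5d* and *Atp5h*. These 9 were chosen by this pattern after the values were seen, and all classes share the same 2 libraries.

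*mt-Nd3* had 403 CPM in the WT-labelled library and 361 in the KO-labelled library in optic vesicle-like cells, 493 and 371 in mesenchyme-like, and 358 and 258 in primitive erythroid-like cells. Its ratios ran from 0.719 to 0.897 over the 7 classes. Those of *Atp5k* ran from 0.759 to 0.901 and those of *Ndufa3* from 0.696 to 0.916. *Ndufs7* ran from 1.02 to 1.34.

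The members lower in every class had a median transcript length of 468 bases against 861 for the other members, although *Ndufc1* among them had 1249. Over the 79 members the Spearman correlation of the median ratio with transcript length was 0.279. Over 1224 genes with a coding transcript it was -0.138, and the genes lower in every class also had shorter transcripts, with a median of 1257.5 bases against 1767.5. Shorter transcripts among the genes lower in every class are thus not particular to the members. The correlation, in contrast, had opposite signs over the members and over all these genes. Genes share the libraries, so these are descriptions.

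**Figure D5:**
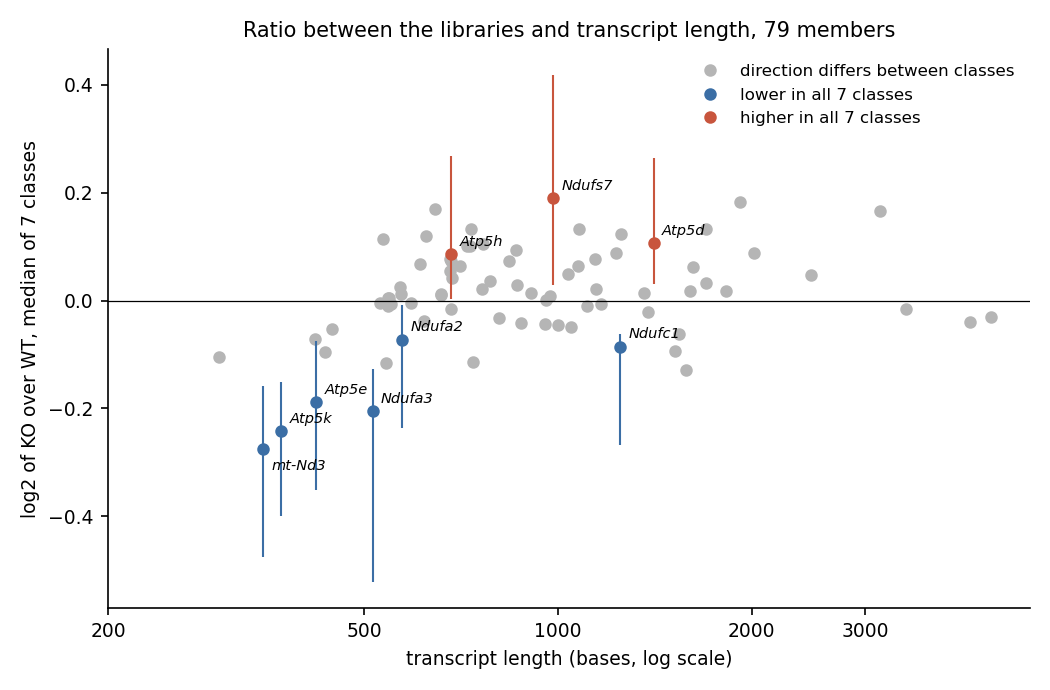
Median over the 7 classes of the log2 ratio of the KO-labelled library to the WT-labelled library against transcript length (bases, log scale) for 79 members. Blue members were lower and red members higher in every class, with lines from the lowest to the highest class, and grey members differed in direction. The blue members sit mostly at the short end, with *mt-Nd3* the lowest, at a ratio of 0.827.

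Genes around the chain were read from lists of mitochondrial function and of glycolysis. The mitochondrial ribosome, which translates the mitochondrially encoded messengers, had 76 of its 77 genes tested in optic vesicle-like cells, with a median of 1.13-fold and 1.08-fold over the other classes and a ratio between the libraries of 0.994. Of the 13 genes of glycolysis and the response to low oxygen, 6 were at least 1.5-fold higher in optic vesicle-like cells than in the other classes in both libraries, against the 8.47% of all genes. *Gapdh* was 2.31-fold and 2.06-fold, *Ldha*, which makes lactate, 2.24-fold and 1.80-fold, and the glucose transporter gene *Slc2a1* 2.003-fold and 1.87-fold. Between the libraries, the 13 genes had a median ratio of 0.874 in optic vesicle-like cells, with none past 1.5-fold, and the 13 genes of the TCA cycle 0.901. In surface ectoderm-like cells these medians were lower than 1 as well, at 0.788 (6 tested) and 0.890 (7 tested). In forebrain neural ectoderm-like cells they were 0.955 (6 tested) and 0.974 (3 tested), and in primitive erythroid-like cells 1.021 (6 tested) and 0.988 (12 tested). In mesenchyme-like cells they were 1.084 (12 tested) and 1.086 (13 tested), and in endothelium-like cells 1.022 (7 tested) and 1.133 (13 tested). In neural crest-like cells the 5 glycolysis genes tested had 1.277. In optic vesicle-like cells none of the 14 genes tested for mitochondrial DNA transcription and replication, the 15 for mitochondrial messenger stability and the 19 for complex IV assembly was 1.5-fold apart, either between the libraries or from the other classes.

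Single genes of these lists passed 1.5-fold between the libraries in smaller classes. *Tfam*, which packages and transcribes mitochondrial DNA, had 63 and 76 UMIs in surface ectoderm-like cells (1.73 [1.22, 2.45]). *Cox17*, a copper chaperone for complex IV, was 0.616-fold in endothelium-like cells [0.512, 0.741] and 0.617-fold in primitive erythroid-like cells [0.532, 0.714], where it was also 2.86-fold and 2.36-fold above the other classes. *Pet100*, another complex IV assembly factor, and *Usmg5*, a small protein bound to ATP synthase, were 0.638-fold and 0.647-fold in primitive erythroid-like cells. *Fh1*, fumarate hydratase, was 1.62-fold [1.12, 2.36] in endothelium-like cells, and *Slc2a1* 0.653-fold [0.469, 0.901] in surface ectoderm-like cells. *Hk2*, a hexokinase of glycolysis, was 0.581-fold [0.513, 0.657] and *Pgk1* 1.62-fold [1.32, 2.01] in mesenchyme-like cells, and *Ldha* was 1.62-fold [1.37, 1.91] in neural crest-like cells. *Ppargc1a*, a coactivator of mitochondrial biogenesis, had 137 and 178 UMIs in optic vesicle-like cells, or 5.89 and 6.11 CPM, 2.94-fold and 8.45-fold above the other classes. Its ratio between the libraries there was 1.04 [0.825, 1.30]. The folds thus differ through the mean of the other classes, which lay below these few CPM and makes their size uncertain.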

How the data were processed

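Whole-number UMI counts per gene and cell were deposited by the authors, who made them with Cell Ranger on mm10 (GRCm38) and, per the methods of the study, then merged the libraries by Cell Ranger aggr, a step that can lower read depth. The members, gene lists and class markers were chosen with earlier results of these data known. From the counts, cells were filtered as stated in the report, the 5% limit being read as a fraction where the methods print a percent sign. A cell joined the class with the highest mean scaled marker level if that was at least 0.2 and led by 0.05; this cut was set from marker levels alone. Doublets were kept (Scrublet, at a score of 0.25, marked 24 and 32 cells); 276 and 405 cells lay near the cut. UMIs were summed per class and library and divided by all UMIs of that class (CPM). Classes needed 20 cells in each library, and genes 100 UMIs. Ratios of members used the counts as they were, also where another class had none, and 3 counts served only as the limit for members without a UMI.

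Genes named are all mitochondrially encoded members, the 2 most counted nuclear members per complex, the tissue isoforms, the 3 highest and 3 lowest past 1.5-fold in each comparison, and at most 3 a direction from the wider lists. Alternatives changed filters, doublets, the gate, clusters made without members (scanpy 1.11.5, resolution 0.8), denominators, scaling, fold and minimum count. Ratios and intervals were also run on simulated Poisson counts of optic vesicle-like cells. These counts follow the model that the intervals assume, so the run does not bear on the spread between embryos or on small classes. Positions and lengths come from GENCODE vM21. Of the 109 members, 35 overlap an exon on the other strand, 12 overlap one on their own, and 30 have a copy in another gene at 95% identity over at least 90 of the last 300 bases (blastn 2.17.0+), so their counts are less certain. Protein sequences were not used here, and 1 member past 1.5-fold under 2 alternatives is not reported here.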

Additional observations from a re-analysis of the deposited data

Results flagged for a closer look

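The ratio of the KO-labelled library to the WT-labelled library lay on opposite sides of 1 in different classes. For the mitochondrially encoded sum it was 1.064 in optic vesicle-like and 1.071 in forebrain neural ectoderm-like cells, against 0.979 in mesenchyme-like, 0.973 in primitive erythroid-like and 0.958 in neural crest-like cells. For the nuclear sum it was 1.023 in forebrain neural ectoderm-like and 1.026 in mesenchyme-like cells, against 0.991 in optic vesicle-like and 0.972 in primitive erythroid-like cells. *Atp5b* had a ratio of 1.62 in neural crest-like and 0.764 in surface ectoderm-like cells. With 1 embryo per genotype, none of these differences between classes was tested. Per UMIs without globins the primitive erythroid-like ratios were 0.992 and 0.991, and neither differed from 1 beyond counting error.

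*Cox4i2* was counted in macrophage-like cells, a class of 17 and 8 cells that is too small for the comparisons, at 94.5 CPM (58 UMIs) in the WT-labelled library and 61.4 CPM (14 UMIs) in the KO-labelled library. The highest level among the 7 classes compared was 12.7 CPM.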

How the results depend on the processing

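The ratio of the KO-labelled library to the WT-labelled library for the nuclear members of forebrain neural ectoderm-like cells turned from 1.02 to 0.994 with cell classes from clusters, which put 264 and 244 cells there in place of 32 and 58. A stricter gate left 7 and 16 forebrain cells and gave no value. Clusters named 185 and 365 optic vesicle-like cells in place of 790 and 1115, so every cluster value for that class rests on fewer cells. For the mitochondrially encoded sum, other settings moved the ratio by more than its counting interval without turning a called value. Without the mitochondrial limit, which acts on these members directly, it was 1.01 in endothelium-like, 1.04 in forebrain, 0.971 in mesenchyme-like, 0.927 in primitive erythroid-like and 0.927 in surface ectoderm-like cells. With clusters it was 0.974 in mesenchyme-like and 1.05 in optic vesicle-like cells, with the stricter gate 0.984 and 1.07, and with median-ratio scaling 0.974 and 1.06, and 0.930 in neural crest-like cells. As a mean over cells it was 1.11 in forebrain and 1.002 in surface ectoderm-like cells, and without globins 0.992 in primitive erythroid-like cells. For the nuclear sum, the mean over cells gave 1.03 in endothelium-like and 1.03 in mesenchyme-like cells, clusters 0.986 in optic vesicle-like cells, median-ratio scaling 0.983 there, 0.991 in neural crest-like and 0.987 in primitive erythroid-like cells, and the globin-free denominator 0.991 in the last; both globin-free values included 1 in their counting intervals. Of these, the surface ectoderm mean and the neural crest scaling crossed 1, in sums that did not differ from 1 beyond counting error. The cause was not tested.

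The 6 pairs past 1.5-fold became 54 at a ratio of 5 to 4, 0 at a fold of 2 and 14 from 30 UMIs on. The mitochondrially encoded share of mesenchyme-like over optic vesicle-like cells was 1.53 without the limit, 1.63 with clusters and 1.53 as a median over cells in the WT-labelled library, and 1.39, 1.52 and 1.41 in the KO-labelled library. The nuclear one was 0.867 with clusters and 0.870 as a median in the KO-labelled library, and 0.835 as a median in the WT-labelled library. Per UMIs without globins, *Cox6b2* (0.623 and 0.657) and *mt-Nd1* (0.621 and 0.661) were also past 1.5-fold below the other classes in optic vesicle-like cells, *Uqcrc1* and 1 other nuclear member in forebrain, and *Ndufa8* and *Ndufs3* in neural crest-like cells. For *Cox6b2* the mean of the other classes includes primitive erythroid-like cells, which had the most of it.

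No paired analysis was possible because each genotype had 1 library. The spread between embryos is unknown, so no difference between the libraries can be separated from one between embryos or preparations. The small classes limit single members: with 32 or 33 cells per library in neural crest-like cells, 81 members reached 100 UMIs.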

Other observations

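Barcodes above the mitochondrial limit, 54 in the WT-labelled library and 53 in the KO-labelled library, had 6.03% and 5.99% of their UMIs on the 13 mitochondrially encoded members. Their nuclear members made up 2.64% and 2.87%, so that the ratio of the KO-labelled library to the WT-labelled library was 1.09 [1.06, 1.11] for the nuclear sum and 0.993 [0.979, 1.008] for the mitochondrially encoded one. Their median UMIs per barcode were 10985.5 and 8859, below the 21037 and 18135 of the kept cells.

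Surface ectoderm-like cells were also split by the summed level of the lens placode markers *Pax6*, *Six3* and *Sox2*, at 3 UMIs per 10000, a limit set after the marker levels were seen. The part with the higher level held 32 and 19 cells, and 8 and 7 cells lay within 1 UMI of the limit. Its mitochondrially encoded share was 2.59% and 2.56%, and its nuclear share 2.82% and 2.80%. *Uqcrc2* had 80 UMIs in the WT-labelled library and 24 in the KO-labelled library there (ratio 0.518 [0.314, 0.827]), and *Atp5b* 511 and 183 (0.619 [0.520, 0.734]). In the part with the lower level, of 25 and 24 cells, the shares were 2.73% and 2.65% mitochondrially encoded and 2.68% and 2.75% nuclear. *Ndufb6* had 51 and 69 UMIs there (1.55 [1.07, 2.28]), and *Atp5b* 288 and 243.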
